A study of Mus musculus with 51 samples.

Results

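The active and primed chromatin around 10 genes of the Wnt pathway was examined during the differentiation of mouse embryonic stem cell-derived neural precursors into astrocytes. The genes were chosen by name as the transcription factors Lef1, Tcf7, Tcf7l1 and Tcf7l2, the pathway target Axin2, the co-activator Ctnnb1, the receptors Fzd1 and Fzd2 and the ligands Wnt5a and Wnt7b. All 10 were found among the 22359 protein-coding genes of the annotation. A peak was assigned to a gene when it overlapped the gene body or the 10 kb on either side of it, which gave windows of 838 kb in all. These windows held 85 of 79413, 83 of 83433 and 79 of 92700 H3K27ac peaks, and 130 of 154238, 164 of 185478 and 163 of 208333 H3K4me1 peaks, in the order of the 3 stages.

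The study profiled both histone marks by ChIP-seq in cells of C57/BL-6 background. The astrogliogenic neural precursors (aNPC) were grown with EGF and FGF-2, and the astrocytes were obtained from them in low serum with LIF, after 1 day (early astrocytes, eA) and 5 days (late astrocytes, lA). No knockdown or other treatment entered these groups. The culture is an in vitro model with no other brain cells around it, and 2 replicates of each mark and stage were merged before the peaks were called. Thus each mark and stage was represented by 1 list, no difference between stages had a replicate check, and no p-value could be given. A difference in covered length of at least 2-fold (or to at most 0.5) is counted below as a description, beside the share that met it among the coding genes with a peak of the mark in their window at either stage compared.

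In canonical Wnt signalling, a secreted Wnt ligand binds a Frizzled receptor, and beta-catenin, the product of Ctnnb1, escapes a destruction complex built on Axin proteins and enters the nucleus. There it joins a DNA-binding factor of the TCF/LEF family, and the genes bound by the pair, Axin2 among them, are switched on. In the developing brain the pathway is known for its part in the proliferation of neural precursors and in regional patterning. Acetylation of histone H3 at lysine 27 (H3K27ac) is found at active promoters and enhancers, whereas H3K4me1 also marks enhancers that are not active, often called primed.

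Several distal peaks differed between the stages, and the bases around their summits are given here because the description of Lef1, Axin2, Wnt7b, Tcf7, Tcf7l2 and Fzd1 turns on them. Each is the 200 bp of the mm9 genome centred on the summit of the named H3K27ac peak, read 5′ to 3′ on the strand of the gene, with distances in kb from the 5′-most start site of a coding transcript. Capitals mark a match to the RUNX word TGTGGTT on either strand, and sequences without capitals held no match to the words searched. The sequences from Tcf7l2, from Axin2 at +37.7 kb and from Wnt7b at +17.0 kb were picked after their values were seen. In Lef1, Axin2 and Wnt7b, these are the summits of distal sites with the largest peak in aNPC.
Lef1 +29.3 kb, aNPC peak, chr3:130842616-130842815 (plus strand): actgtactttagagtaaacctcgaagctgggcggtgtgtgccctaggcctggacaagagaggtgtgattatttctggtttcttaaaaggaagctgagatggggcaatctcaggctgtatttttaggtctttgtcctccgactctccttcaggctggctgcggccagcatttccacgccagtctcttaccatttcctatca
Axin2 +37.7 kb, aNPC peak, chr11:108819297-108819496 (plus strand): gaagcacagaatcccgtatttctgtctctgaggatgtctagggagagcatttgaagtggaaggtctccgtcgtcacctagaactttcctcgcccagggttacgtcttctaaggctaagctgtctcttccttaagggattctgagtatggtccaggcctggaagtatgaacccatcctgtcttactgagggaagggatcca
Wnt7b +17.0 kb, aNPC peak, chr15:85395127-85395326 (minus strand): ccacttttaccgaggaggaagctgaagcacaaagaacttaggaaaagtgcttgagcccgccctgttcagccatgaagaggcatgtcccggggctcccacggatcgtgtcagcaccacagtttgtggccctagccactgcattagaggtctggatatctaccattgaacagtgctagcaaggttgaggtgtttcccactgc

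The next set comes from sites with their highest H3K27ac rank in lA.
Tcf7 +32.4 kb, lA peak, chr11:52064209-52064408 (minus strand): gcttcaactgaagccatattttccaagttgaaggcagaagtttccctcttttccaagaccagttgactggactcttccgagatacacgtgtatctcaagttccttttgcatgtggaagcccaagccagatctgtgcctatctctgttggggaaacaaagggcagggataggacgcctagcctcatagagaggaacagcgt
Tcf7l2 +134.5 kb, lA peak, chr19:55950734-55950933 (plus strand): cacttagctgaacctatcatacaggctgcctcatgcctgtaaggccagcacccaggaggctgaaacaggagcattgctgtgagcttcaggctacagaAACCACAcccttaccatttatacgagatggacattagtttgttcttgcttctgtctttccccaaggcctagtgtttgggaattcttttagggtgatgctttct
Axin2 −2.2 kb, lA peak, chr11:108779403-108779602 (plus strand): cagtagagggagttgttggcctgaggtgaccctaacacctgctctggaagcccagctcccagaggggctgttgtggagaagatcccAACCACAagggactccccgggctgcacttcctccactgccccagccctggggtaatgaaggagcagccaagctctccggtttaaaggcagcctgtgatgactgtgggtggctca
Fzd1 −10.5 kb, lA peak, chr5:4768583-4768782 (minus strand): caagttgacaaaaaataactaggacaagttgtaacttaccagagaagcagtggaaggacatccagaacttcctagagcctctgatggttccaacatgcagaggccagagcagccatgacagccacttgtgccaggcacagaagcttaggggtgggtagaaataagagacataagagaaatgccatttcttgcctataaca

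The last is the strongest distal H3K27ac peak of Wnt7b in eA, at a site present in every stage.
Wnt7b +5.8 kb, eA peak, chr15:85406374-85406573 (minus strand): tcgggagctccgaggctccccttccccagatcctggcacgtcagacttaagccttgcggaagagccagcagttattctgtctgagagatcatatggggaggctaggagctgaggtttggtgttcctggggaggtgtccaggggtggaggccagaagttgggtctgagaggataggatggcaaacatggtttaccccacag

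Across the 10 genes, the H3K27ac peaks that overlapped the windows covered 55.7 kb at the aNPC stage, 51.3 kb at eA and 50.9 kb at lA, of which 55.6, 50.7 and 50.2 kb lay inside the windows. The H3K4me1 peaks covered 90.6 kb, 104 kb and 101 kb. The peaks of the genes made up 0.107%, 0.0995% and 0.0852% of the H3K27ac lists and 0.0843%, 0.0884% and 0.0782% of the H3K4me1 lists. The lists themselves grew from aNPC to lA, whereas the number of H3K27ac peaks at the genes went from 85 to 79. All 10 promoters, defined as the stretch from 1 kb before to 100 bp after a coding start site, carried H3K27ac in aNPC and eA, and 9 did so in lA, where 50.6%, 53.2% and 48.2% of all coding genes had such a peak. H3K4me1 was present at 9, 7 and 8 of the promoters, against 55.4%, 53.6% and 52.7% of all coding genes. Thus 7 members had promoter H3K4me1 in all stages (46.7% of coding genes), of which Axin2 had none in aNPC and eA, and Tcf7 none in lA, with a −log10 q of at least 5. From aNPC to eA it was lost at Tcf7l1 and Fzd2 (4.94%) and gained at 0 members (3.07%). From eA to lA it was gained at Tcf7l1 (4.14%) and lost at 0 members (4.99%), and from aNPC to lA it was lost at Fzd2 (6.7%) and gained at 0 members (3.97%). With promoters of 1 kb on either side of any start, both genes had a promoter H3K4me1 peak in eA too and the eA count was 9. These losses in eA thus rest on the promoter limits, of which the downstream reach and the kind of start were changed together. Promoter H3K27ac was neither lost (1.62%) nor gained (4.23%) at any member from aNPC to eA.

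**Figure D1:**
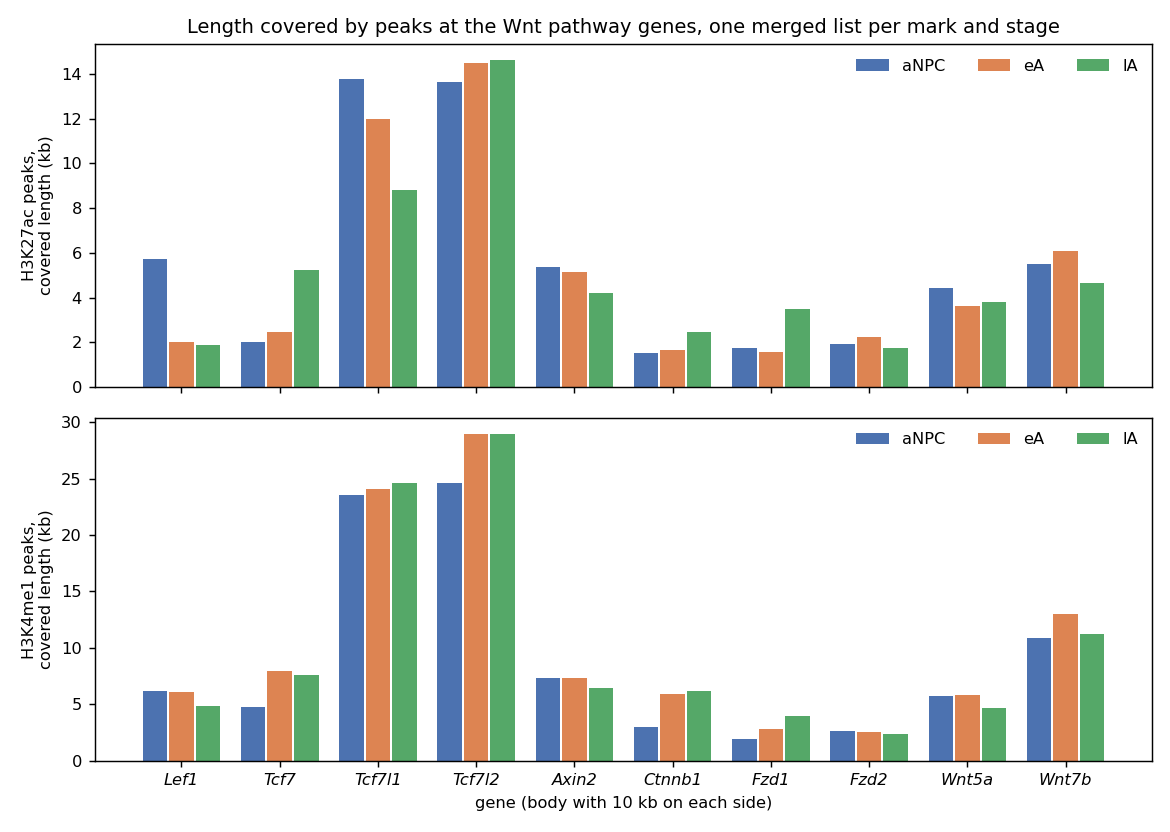
Length covered by H3K27ac (upper panel) and H3K4me1 peaks (lower panel) in kb for each gene, 1 bar per stage from the merged list, with no error bars because the replicates were merged. H3K27ac at Lef1 covered 5.72 kb in aNPC and 1.9 kb in lA, whereas it was longest in lA at Tcf7 (5.21 kb) and Fzd1 (3.49 kb).

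The length covered by H3K27ac went in different directions at different genes. From aNPC to lA it was shorter at 6 genes and longer at 4 (between 5 and 7 shorter under the other peak filters and windows), with a median ratio of 0.878 against 1 over the coding genes with peaks at both stages. Only Lef1 reached 0.5 or less, which 12.6% of the 16553 coding genes with H3K27ac at either stage did, and Tcf7 and Fzd1 reached 2-fold or more, which 16.1% did. From aNPC to eA, Lef1 was again the only gene past either limit, where 9.32% of 16607 such genes were lower and 14.7% higher. From eA to lA, Tcf7 and Fzd1 were higher, as were 7.35% of 16494 such genes, and no member was at 0.5 or less, against 9.27%. Tcf7, at 2.12 here, came to 1.33 without the peaks below a −log10 q of 5 and 1.79 with 50 kb windows, and Fzd1, at 2.24, came to 1.39 and 1.78 with 5 and 50 kb windows and to 1.76 with peaks cut at the edge of the window. From aNPC to lA, with 1 in 10 and 2 in 10 genes past the limits, the shares of the members lay near those of the coding genes with peaks. Between neighbouring stages they lay further off. Higher were 2 of 10 from eA to lA, against 7.35%, and 0 of 10 from aNPC to eA, against 14.7%. For H3K4me1, Ctnnb1 and Fzd1 alone reached 2-fold from aNPC to lA, against 12.2% of the 18486 coding genes with H3K4me1 at either stage, and none reached 0.5 or less (3.36%). Neither held under every setting: Ctnnb1 was at 1.76 with a −log10 q of at least 5, 1.55 with equal numbers of peaks per list and 1.22 with 50 kb windows, and Fzd1 at 1.39 and 1.34 with 5 and 50 kb windows. Between neighbouring stages 0 members passed a limit for H3K4me1, where from aNPC to eA 1.51% of such genes were lower and 6.53% higher, and from eA to lA 3.73% and 5.1%.

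The ligands differed in how much of their H3K27ac lay at the promoter. Wnt5a, which signals mainly outside the beta-catenin route, had a wide promoter peak that measured 2410, 2589 and 2651 bp at aNPC, eA and lA. This peak stood above 88.9%, 90.5% and 95.3% of the peaks of its list by the −log10 q at the summit, a share called its rank below, which depends on the length of the list. A second Wnt5a start site 6.8 kb into the gene carried a 552 bp peak in aNPC (rank 60.1%) and none at the later stages. Both distal H3K27ac sites of Wnt5a lay beyond its 3′ end, at +31.0 and +31.6 kb from the first start, and were present in all stages. The first covered 717, 460 and 829 bp and the second 760, 564 and 333 bp. H3K4me1 overlapped both of them at every stage.

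Wnt7b, a ligand that can act through beta-catenin and is known for its role in vessel growth into the brain, had most of its peaks in its introns. Its promoter peak covered 724, 779 and 420 bp in the order of the stages, with ranks of 60.3%, 82.2% and 57.8%. A further promoter peak of 418 bp, at +1.3 kb, was listed in eA only. Of 17 distal sites, 5 were found in aNPC only, 1 in aNPC and eA, 2 in eA only, 3 in eA and lA, 2 in lA only and 4 in all stages. The lost sites lay between +11.3 and +26.6 kb, and the sites that first appeared at lA lay at +34.6 and +35.4 kb. The aNPC site at +17.0 kb, printed above, had a 798 bp peak (−log10 q of 28.6, rank 75.5%), and at eA and lA it overlapped neither an H3K27ac nor an H3K4me1 peak. By contrast, the site at +34.6 kb carried H3K4me1 in aNPC and eA before its 491 bp H3K27ac peak was listed in lA. The site at +5.8 kb, also printed above, covered 586, 806 and 810 bp while its rank was 76%, 82.4% and 41.5%. All 4 sites present throughout had their highest rank in eA. Counted as places from the top of each list, 3 stood highest in eA and 1 in aNPC.

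The receptors are short genes with strong promoter acetylation. At Fzd1, the peaks over the start and the single exon covered 1739, 1560 and 1650 bp, with ranks of 99.6%, 99% and 97.2%. These were the highest ranks of any member in aNPC and eA. Fzd1 had no other H3K27ac in aNPC and eA, and 2 distal sites appeared in lA. The upstream site at −10.5 kb covered 1328 bp (−log10 q of 13.7, rank 69.2%), and the downstream site at +8.1 kb covered 512 bp (11.6, rank 63.5%). H3K4me1 preceded H3K27ac at both: it was present from eA at the former and from aNPC at the latter. These sites made the covered length of Fzd1 in lA 2.01 times that in aNPC. The upstream peak runs 739 bp past the edge of the window. With peaks cut at the edge the ratio was 1.58, and with windows of 5 kb and 50 kb it was 1.24 and 0.893, so the 2-fold call and the direction at Fzd1 depended on the window.

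Fzd2 carried its H3K27ac at the promoter alone, with no distal peak at any stage. A site centred 0.9 kb upstream of the start covered 1118, 1379 and 1448 bp, and its rank was 96.8%, 95.8% and 98.5%. The peak over the start itself covered 808, 845 and 281 bp, and its rank was 95.6%, 92.1% and 82.3%. Thus the upstream site was widest in lA and the start-site peak narrowest there. A promoter H3K4me1 peak was listed at Fzd2 in aNPC only, or in aNPC and eA with promoters of 1 kb on either side of any start.

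Ctnnb1 is used by nearly every cell, as beta-catenin also links cadherins to the cytoskeleton. Its main promoter peak, just downstream of an internal start site, covered 1356, 1457 and 1561 bp, with ranks of 90.7%, 94.8% and 93.8%. A 180 bp peak at a neighbouring start was listed in aNPC only. No Ctnnb1 promoter overlapped an H3K4me1 peak at any stage, although H3K4me1 peaks overlapped the downstream part of this H3K27ac site. Beyond the 3′ end, in the neighbouring gene Ulk4, sites at +32.4 and +34.7 kb were acetylated in lA only, and a site at +34.0 kb in eA and lA. Their peaks were small, with lA ranks of 56.2%, 9.36% and 15.2%. H3K4me1 over the Ctnnb1 window covered 3011, 5879 and 6151 bp, which was 2.04 times as much in lA as in aNPC, but 1.55 times with equal numbers of peaks per list and 1.22 times with 50 kb windows.

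The TCF/LEF factors, which bind the same DNA word and recruit beta-catenin or Groucho/TLE co-repressors, are described next. Lef1, known mainly as an activator, had its widest H3K27ac in aNPC and much less from eA on. Its peaks covered 5722 bp at the aNPC stage but 2005 bp at eA and 1900 bp at lA. The ratio of lA to aNPC was 0.332, and 3.31% of the coding genes with peaks at both stages had a lower one. At the promoter, the peak of 2262 bp in aNPC (−log10 q of 59.3, rank 86.7%) was replaced by 3 peaks of 1504 bp together in eA, the highest at a rank of 52.1%, and by 1 peak of 1127 bp in lA (29.9, rank 88.5%). The intronic site at +29.3 kb, printed above, covered 2032 bp in aNPC (82.6, rank 91%). In eA the same site held 501 bp (7.85, rank 41.5%) and in lA 773 bp (5.08, rank 23.5%). A second intronic site at +7.5 kb, of 1428 bp, carried H3K27ac and H3K4me1 in aNPC and neither mark later. H3K4me1 stayed over the +29.3 kb site at all stages, and over the whole window it covered 6177, 6128 and 4862 bp, a ratio of 0.787. The Lef1 ratio for H3K27ac was between 0.332 and 0.353 under each other peak filter and window tried.

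**Figure D2:**
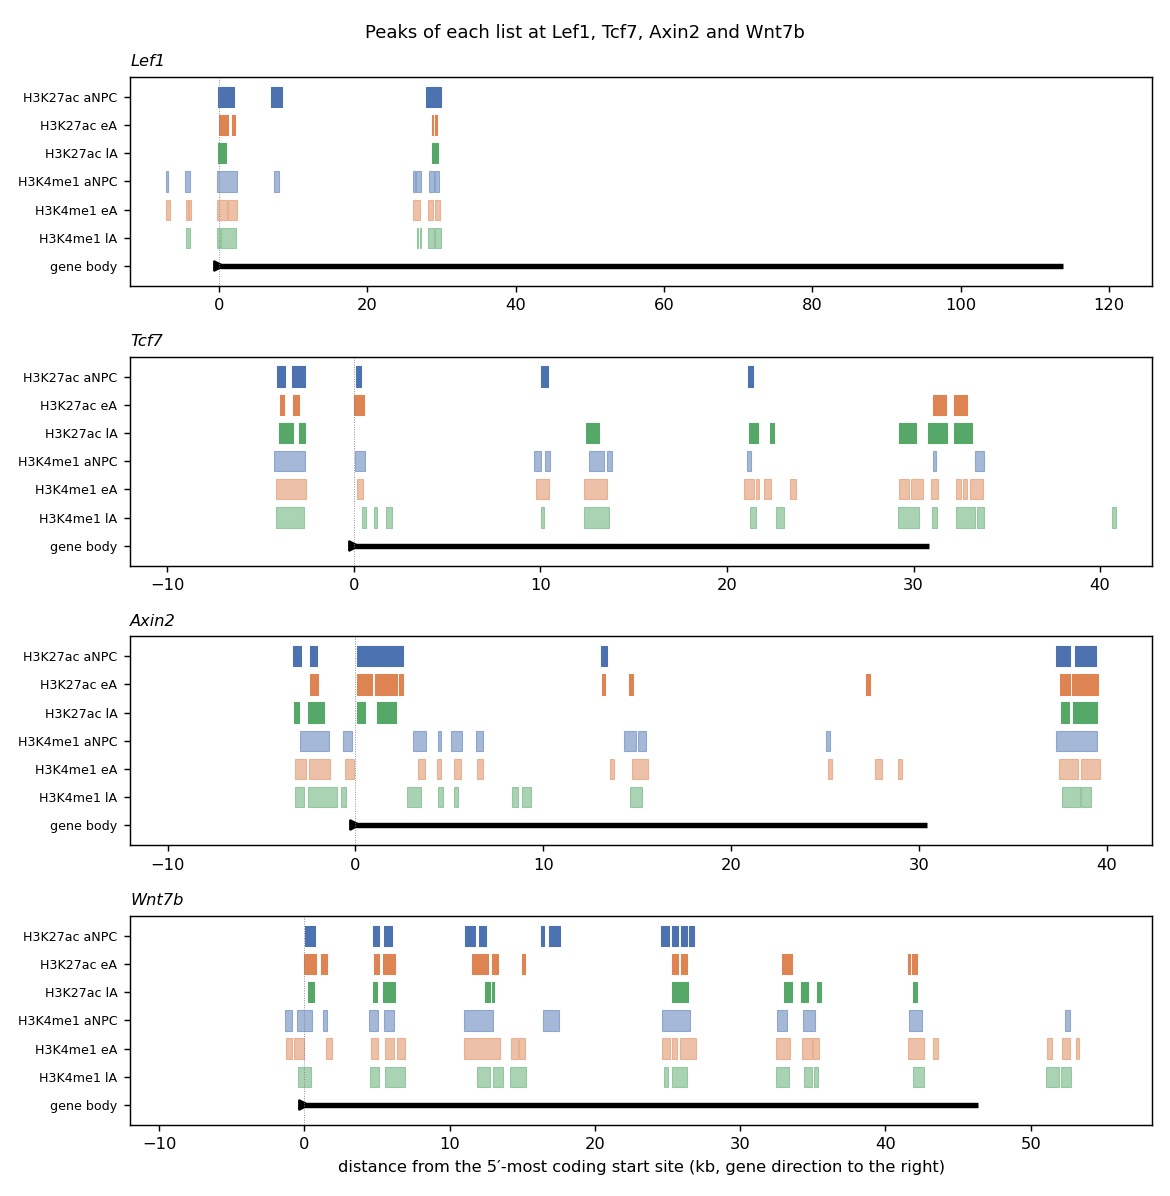
Positions of the peaks of all 6 lists at Lef1, Tcf7, Axin2 and Wnt7b, with the distance in kb from the 5′-most coding start on the horizontal axis, 1 row per mark and stage, and the gene body as a black line. The Lef1 intron site at +29.3 kb is widest in aNPC, and the Tcf7 sites at +31.5 and +32.4 kb are acetylated in eA and lA only.

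Tcf7, which encodes TCF1 and is best known from T cells, had its longest H3K27ac coverage in lA, from sites outside its promoter. It was the only member that lacked promoter H3K27ac at a stage, with a peak of 262 bp in aNPC (rank 41.2%), 497 bp in eA (rank 72%) and none in lA. A promoter peak was lost from aNPC to lA at 5.05% of coding genes and from eA to lA at 6.29%. H3K4me1 peaks of 544, 289 and 239 bp were listed at the Tcf7 promoter. The lA peak was weak (−log10 q of 3.57, rank 7.46%), and it was absent with a −log10 q of at least 5 and with equal numbers of peaks per list. At the same time the covered length of the Tcf7 window went from 2017 bp (aNPC) through 2459 bp (eA) to 5214 bp (lA), 2.59 times as much in lA as in aNPC. Most of the added length lay at and beyond the 3′ end. Sites at +31.5 and +32.4 kb, within the non-member gene Gm16953, had no H3K27ac in aNPC. They covered 702 and 688 bp in eA (ranks 56.5% and 67.1%) and 975 and 954 bp in lA (ranks 91.3% and 93.9%). H3K4me1 was listed over both sites in eA, and in aNPC only as a weak 168 bp peak at the +31.5 kb site (−log10 q of 2.83, rank 2.03%). Another 3 sites, at +12.9, +22.3 and +29.8 kb, were listed in lA only at ranks of 20.4%, 15.1% and 26.5%. Other distal sites of Tcf7 did not share this order. The site at −2.9 kb, the strongest of the gene in aNPC, covered 1154, 572 and 1025 bp while its −log10 q was 18.8, 10.6 and 4.25 (ranks 67.3%, 52.8% and 14.7%). An intronic site of 334 bp was listed in aNPC only (rank 15.2%), and that at +21.3 kb in aNPC (267 bp, rank 42.8%) and lA (469 bp, rank 23.1%). When peaks below a −log10 q of 5 were left out, 4 of the 8 lA peaks remained and the ratio was 1.94, just short of the 2-fold limit. Because these sites lie in or next to another gene, the peaks alone do not assign them to Tcf7.

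Tcf7l1, encoding TCF3, which acts mostly as a repressor in stem cells, held acetylation along its whole body in aNPC and less at each later stage. The numbers of H3K27ac peaks were 27, 21 and 17 by stage, over 13789, 12007 and 8819 bp (a ratio of 0.64). The promoter did not share this order: its site covered 1433, 1924 and 1612 bp, at ranks of 90.6%, 93.9% and 94.7%. Of 24 distal sites, 7 were found in aNPC only, 5 in aNPC and eA, 1 in aNPC and lA, 2 in eA only, 1 in eA and lA, 1 in lA only and 7 in all stages. Thus 12 sites had lost H3K27ac by lA, and 8 of them still overlapped an H3K4me1 peak in lA. The strongest distal site, at +48.2 kb, covered 1505 bp in aNPC (rank 82.4%), 1108 bp in eA (79.1%) and 956 bp in lA (59.1%). H3K4me1 covered 23543, 24068 and 24628 bp of the same window, so that its length differed little where that of H3K27ac became shorter. The window also held the promoter of Tgoln1 at +172.2 kb, with 1095, 1807 and 1210 bp of H3K27ac, and that of Gm15401.

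Tcf7l2, encoding TCF4, had much the same total covered length at each stage, most of it at sites present throughout, while smaller sites differed. H3K27ac covered 13666, 14476 and 14615 bp, and H3K4me1 covered 24604, 28930 and 28942 bp. The first promoter site covered 871, 846 and 829 bp, with ranks of 91.4%, 93% and 82.2%. A second site, over start sites about 154 kb into the gene, covered 1274, 1277 and 996 bp, with ranks of 72.8%, 61.1% and 56.7%. Of 29 distal sites, the most of any member, 11 were present at all stages, 7 in eA only, 4 in lA only, 3 in aNPC only, 1 in aNPC and eA, 2 in aNPC and lA and 1 in eA and lA. The strongest, at +2.1 kb, had ranks of 97.9%, 96.6% and 96.5% and overlapped no H3K4me1 peak at any stage. It began just downstream of the first promoter site, so its class as distal depends on the promoter limits. With promoters within 1 kb of any start, Tcf7l2 had 3, 3 and 5 promoter H3K27ac peaks in place of 2, 2 and 2. The site at +134.5 kb, printed above, covered 213 bp in aNPC (rank 22.9%), 690 bp in eA (75.7%) and 716 bp in lA (91.7%), with H3K4me1 at all stages. Going the other way, the site at +46.9 kb covered 721, 673 and 306 bp, and its rank was 77.7%, 63% and 12.9%. Among the lA-only sites, those at +70.3 and +88.3 kb had ranks of 68% and 64.7%, and H3K4me1 was first listed over both in eA, at ranks of 49.2% and 3.45%.

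**Figure D3:**
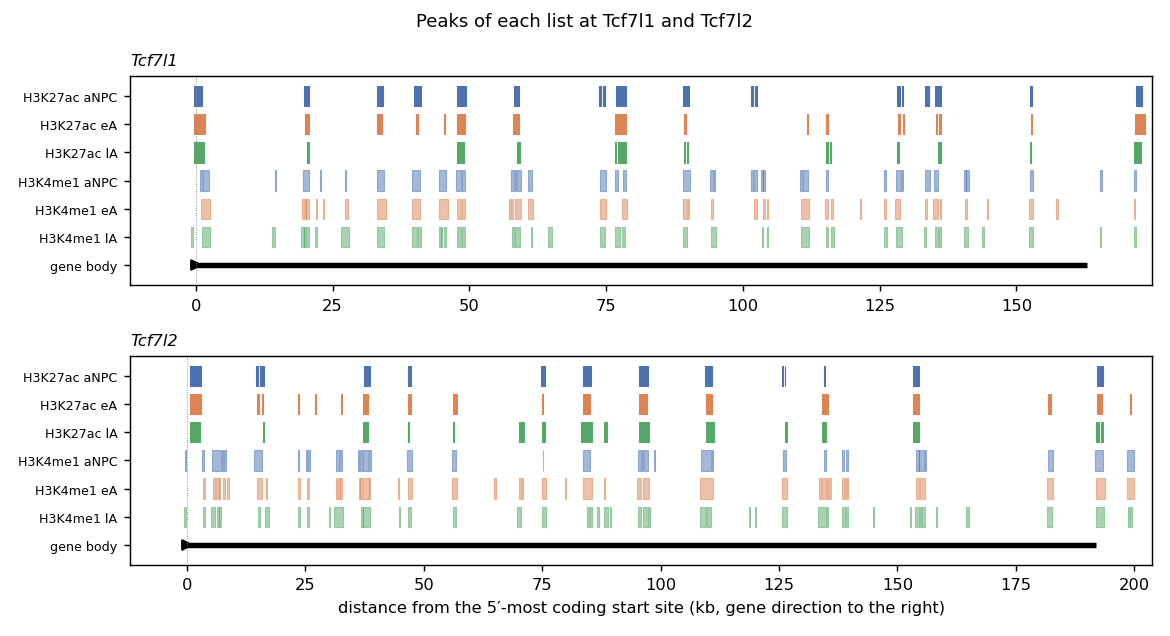
Positions of the peaks of all 6 lists along Tcf7l1 and Tcf7l2, in kb from the 5′-most coding start, with 1 row per mark and stage. H3K27ac peaks along Tcf7l1 number 27 in aNPC and 17 in lA, against 22 and 23 at Tcf7l2, and H3K4me1 peaks lie beneath most of them.

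Axin2, a scaffold of the destruction complex that is itself a widely used readout of the pathway, had its widest promoter acetylation in aNPC, while its distal sites went both ways. Its promoter site covered 2444 bp in aNPC as a single peak (−log10 q of 158, rank 97%), 2199 bp as 3 peaks in eA (rank 95.4%) and 1432 bp as 2 peaks in lA (rank 94.3%). The downstream site at +37.7 kb, printed above, covered 733 bp in aNPC (85.8, rank 91.5%), 506 bp in eA (9.21, rank 47.7%) and 453 bp in lA (5.86, rank 32.6%). Its neighbour at +38.9 kb covered 1111, 1338 and 1244 bp, with ranks of 88.1%, 62.5% and 82.2%. The upstream site at −2.2 kb behaved differently: 347 bp in aNPC (rank 75.9%), 474 bp in eA (72.7%) and 835 bp in lA (57.6, rank 97%). H3K4me1 overlapped these 3 sites at every stage. The other sites of Axin2 lay at −3.0 kb (423 bp in aNPC and 251 bp in lA), at +13.2 kb (313 bp in aNPC and 205 bp in eA) and at +14.6 and +27.3 kb (226 and 205 bp, in eA only). In total, Axin2 had 5371, 5153 and 4215 bp of H3K27ac, a ratio of 0.785.

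Counted together, the members had 94 distal H3K27ac sites, of which 29 (30.9%) were present at all stages, against 19.2% of the 115804 distal sites of the whole lists. Sites of a single stage numbered 17 in aNPC (18.1%, against 23.9%), 13 in eA (13.8%, against 11.8%) and 14 in lA (14.9%, against 21.7%). Another 8 were shared by aNPC and eA (8.51%, against 4.55%), 8 by eA and lA (8.51%, against 15.3%) and 5 by aNPC and lA (5.32%, against 3.63%). Most of these sites lay in Tcf7l2, Tcf7l1 and Wnt7b, whose sites share a gene and are not independent. Sites of all stages were the widest, with a median of 930 bp, and eA-only sites the narrowest, at 173 bp. The whole lists showed medians of 972 and 193 bp. Among the 29 sites present throughout, 11 were widest in aNPC (37.9%, against 40.4% in the whole lists), 6 in eA (20.7%, against 25.3%) and 12 in lA (41.4%, against 34%). By place from the top of the list, which a longer tail of weak peaks does not move, 12 stood highest in aNPC (41.4%, against 41.3%), 11 in eA (37.9%, against 25.6%) and 6 in lA (20.7%, against 33.1%).

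**Figure D4:**
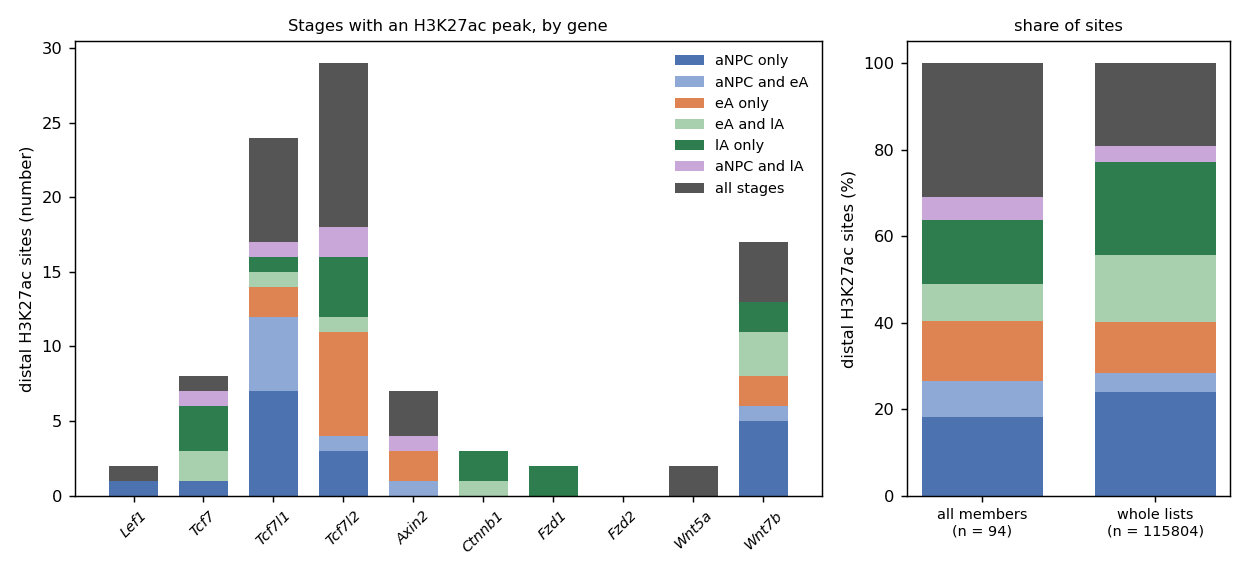
Left, number of distal H3K27ac sites of each gene, coloured by the stages in which a peak was listed; right, the same as a percentage for the 94 sites of all members and the 115804 sites of the whole lists. Sites of all stages (dark grey) make up 30.9% at the members and 19.2% in the whole lists.

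H3K4me1 accompanied nearly all distal H3K27ac of the members. In aNPC, 62 of 69 distal H3K27ac peaks overlapped an H3K4me1 peak of that stage (89.9%, 95% Wilson interval 80.5 to 95), against 82.2% in the whole list. In eA it was 59 of 65 (90.8%, 81.3 to 95.7, against 88.4%) and in lA 60 of 65 (92.3%, 83.2 to 96.7, against 84.5%). Single peaks were counted here, and some are pieces of promoter sites, such as the Fzd1 exon peak in aNPC. These intervals, and those that follow, cover counting error only. Of 35 distal sites that gained H3K27ac after aNPC, 19 already overlapped an aNPC H3K4me1 peak (54.3%, 38.2 to 69.5), where the whole lists gave 49.2%. Of 25 sites that lost H3K27ac by lA, 14 still had H3K4me1 in lA (56%, 37.1 to 73.3), where the whole lists gave 54.9%. Both shares of the members lay close to those of the whole lists. By gene, H3K4me1 was present in lA at 4 of 4 lost sites in Tcf7l2 (51 to 100), 8 of 12 in Tcf7l1 (39.1 to 86.2), 1 of 6 in Wnt7b (3.01 to 56.4), 1 of 1 in Tcf7 and 0 of 1 in each of Lef1 and Axin2. The lost Axin2 site overlapped no H3K4me1 peak in aNPC or eA either. The difference between genes was not tested, and these intervals overlap.

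The H3K4me1 peaks formed 176 sites, of which 87 (49.4%) were present in all stages, against 39.1% in the whole lists. H3K4me1 sites of a single stage numbered 8 in aNPC (4.55%, against 7.8%), 20 in eA (11.4%, against 8.11%) and 26 in lA (14.8%, against 23.3%). No H3K27ac peak of any stage overlapped 92 of the 176 sites (52.3%), against 59.2% in the whole lists. At Axin2 these never-acetylated sites were 11 of 14 and at Ctnnb1 10 of 12, whereas at Wnt7b they were 5 of 16.

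The 200 bp around each H3K27ac summit was searched on both strands for the TCF/LEF words CTTTGAA and CTTTGAT, the AP-1 word TGANTCA, the RUNX word TGTGGTT and the full palindromic NF1 word, none of which contains another. A TCF/LEF word was found in 2 of 85 member peaks in aNPC (2.35%, against 7.04% of the list), 5 of 83 in eA (6.02%, against 7.18%) and 2 of 79 in lA (2.53%, against 7.15%). All of these peaks were distal, in Tcf7l1, Wnt7b and Axin2. They included the eA-only Axin2 sites at +14.6 and +27.3 kb. The RUNX word occurred in 5.88%, 7.23% and 6.33% of member peaks, against 3.9%, 3.73% and 3.9% of the lists, among them the Axin2 site at −2.2 kb and the Tcf7l2 site at +134.5 kb. The AP-1 word occurred in 4.71%, 3.61% and 6.33%, against 5.83%, 5.7% and 5.67%. The full NF1 word was in no member peak and in 0.0189%, 0.0252% and 0.0162% of the lists. The member windows were richer in G and C, with medians of 52.5%, 53% and 52% against 49%, 49.5% and 49%, and the part of this in the shares was not tested. A match is a word in these bases only and shows no binding.

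Beyond the members, 77 other genes of the pathway were read in the same way. Their promoters carried H3K27ac at 46 (59.7%), 45 (58.4%) and 36 (46.8%) of these genes by stage, and H3K4me1 at 67, 62 and 62. H3K27ac was present in all stages at 34 promoters (44.2%, against 45.2% of all coding genes), in none at 27 and in some stages at 16 (20.8%, against 10.6%). From aNPC to lA, 12 promoters lost it and 2 gained it, where 5.05% and 2.66% of coding genes did. The cytoplasmic components (Dishevelled, APC, Axin1, GSK3 and others) had it at 10 of 10 promoters in every stage, and the nuclear cofactors at 10, 10 and 8 of 10. Of the receptors, 11, 10 and 7 of 13 had it, and of the secreted or membrane inhibitors 6, 6 and 4 of 16. The ligands were mostly without it, at 3, 4 and 2 of 17, although H3K4me1 lay at 14, 14 and 13 of their promoters. The Rspo and Lgr agonists had it at 3 of 7 in each stage and the further targets at 3, 2 and 2 of 4.

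Among these 16 promoters, acetylation in aNPC and eA but not lA, as at Tcf7, was seen at Wnt4, Wnt9a, Fzd3, Ror2, Sfrp2, Nkd1, Pygo1 and Ctbp1. Acetylation in aNPC only was seen at Fzd5, Fzd9, Notum and Ccnd1. The remainder were acetylated in eA only (Lrp5 and Nkd2), in eA and lA (Wnt5b) or in lA only (Apcdd1). Over the whole windows, 16 of the 70 pathway genes with H3K27ac in aNPC or lA were at 0.5 or less in lA (12.6% of all coding genes with H3K27ac at either stage) and 19 were at 2-fold or more (16.1%), so the genes given here do not stand for the list. Ror2, a receptor of Wnt5a, had 2341 bp of H3K27ac over its window in aNPC, 262 bp in eA and none in lA, while H3K4me1 covered 13304, 12921 and 11149 bp. Notum, a secreted enzyme that inactivates Wnt ligands, had 2152, 635 and 0 bp, and Nkd1, an intracellular feedback inhibitor, 6994, 3082 and 1988 bp. Wnt4 had 3783, 2064 and 306 bp. By contrast, Wnt5b had 4639, 9110 and 11406 bp. Window length and promoter did not always go together: Wnt9a lost its promoter peak in lA but had 410, 2718 and 3153 bp in its window. For Ccnd1, the cyclin D1 gene, the window held 2955, 2868 and 3383 bp.

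**Figure D5:**
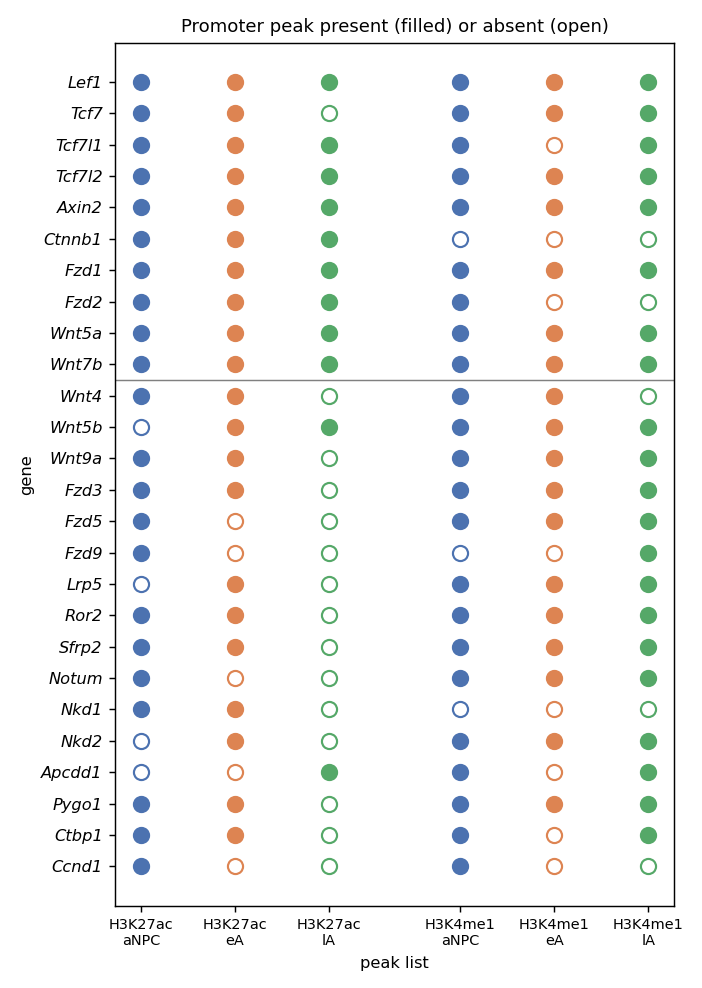
Presence (filled) or absence (open) of a promoter peak in each of the 6 lists, for the 10 members (above the line) and the 16 other pathway genes whose promoter H3K27ac was present in some stages. Tcf7 is the only member with an open H3K27ac circle, in lA, and 12 of the 16 other genes have H3K27ac in aNPC but not in lA.

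The likeness of promoters was measured as the same presence or absence in 6 of 6 lists. Lef1, Tcf7l2, Axin2, Fzd1, Wnt5a and Wnt7b had a promoter peak in every list (Axin2 through weak H3K4me1 peaks in aNPC and eA), as did 28 of the other pathway genes and 33.9% of all coding genes. All coding starts of a gene were pooled here, so the marks need not share a start. The acetylated promoter site of Axin2 and the first of Tcf7l2 overlapped no H3K4me1 peak at any stage. The main acetylated promoter site of Ctnnb1 overlapped one at every stage, outside the promoter limits. The Tcf7 pattern was shared by Wnt9a, Fzd3, Ror2, Sfrp2 and Pygo1 and by 2.52% of coding genes. Tcf7l1, with no H3K4me1 promoter peak in eA, was matched by Fzd10 and Ror1 (1.43% of coding genes), and Fzd2 by Bcl9l (1.79%). The patterns of Tcf7l1 and Fzd2 depend on the promoter limits, since both had such a peak in eA with promoters within 1 kb of any start. No other pathway gene had the pattern of Ctnnb1, with H3K27ac and no H3K4me1 within the promoter limits in all stages, which 4.26% of coding genes had.

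The labelled cell types were checked by promoter H3K27ac at marker genes. Of 8 astrocyte markers, 5, 5 and 6 carried it, with Gfap acetylated in all stages and covering 2533, 5453 and 6239 bp, and Aqp4 acetylated at its promoter in lA only. S100b went the other way, with a promoter peak in aNPC only and 2459, 739 and 746 bp, and Aldh1l1 had no promoter peak at any stage. Of 6 neural progenitor markers, 5 carried it in each stage. Of 5 neuronal markers, 2, 1 and 1 did so, Tubb3 in every stage and Syt1 in aNPC. None of the oligodendrocyte, microglia, embryonic stem cell and mesenchymal or endothelial markers did so at any stage. The median length covered over their windows was 1120, 1164 and 1029 bp, 1110, 1039 and 903 bp, 475, 1334 and 1550 bp, and 1639, 1211 and 2892 bp, in that order of groups. For the astrocyte markers it was 2780, 4522 and 4662 bp, so a longer coverage in lA was not particular to astrocyte markers. Progenitor marker promoters were thus acetylated in lA too, and the part of mixed stages in the results on the members was not tested.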

How the data were processed

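H3K27ac and H3K4me1 ChIP-seq of aNPC, eA and lA was used, 2 replicates per mark and stage. The authors aligned reads uniquely to mm9 with Bowtie, merged the replicates with SAMtools 0.1.19 and called peaks with MACS2, 1 list per mark and stage. No input control was given to the peak caller, so no peak here was checked against input. In the deposited lists, the −log10 of the q-value at the summit and the summit's offset from the peak start were used. The −log10 q was ranked within a list only, since library depth is unknown here. Mitochondrial peaks were set aside.

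Coding genes and start sites were taken from GENCODE M1 and sequence from NCBIM37 (mm9). Overlap meant at least 1 bp. A site joined overlapping peaks of the 3 stages, and a distal site touched no promoter. Covered length is the summed width of the peaks that overlap a window. Overlaps were tested on simulated peaks (Python 3.11.15, NumPy 2.4.6, SciPy 1.17.1).

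All 10 members, every promoter site, sites of 1 or 2 stages by count or value, and pathway genes acetylated in some stages were named. Tcf7l2 +46.9 kb and other sites of all stages were singled out after their values were seen. The members, lists and words were chosen with earlier results of these data known. RNA-seq samples and knockdown samples with their controls were not used here, and 8 RNA libraries had conflicting labels.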

Additional observations from a re-analysis of the deposited data

How the results depend on the processing

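No paired analysis was possible because the replicates were merged before peak calling, and for the same reason no replicate could be left out. Equal numbers of peaks per list, windows of 5 kb, promoters within 1 kb of any start and overlaps of at least 0.5 of the shorter region moved none of the counts over all members by more than 1.5 times, although promoters within 1 kb of any start gave 9 members in place of 7 with promoter H3K4me1 in eA. Windows of 50 kb gave 135, 127 and 134 H3K27ac peaks and 220, 268 and 267 H3K4me1 peaks in aNPC, eA and lA, and 33 distal sites in aNPC only, 31 in lA only and 48 in all stages. Wider windows take in more peaks by construction. With a −log10 q of at least 5, the distal sites in eA only numbered 7 and those in lA only 8, since weaker peaks were left out. The ratio of lA to aNPC in H3K27ac covered length, tried under 5 alternatives added after seeing the data, reversed at Fzd1 with windows of 50 kb (0.893) and was 1.24 with 5 kb and 1.58 with peaks cut at the window's edge. With 50 kb it was 1.07 at Ctnnb1, 1.54 at Fzd2 (0.898 in the report's windows) and 1.03 at Wnt7b (0.848). At Tcf7l2 (1.07) it was 0.964 with a −log10 q of at least 5 and 0.898 with equal numbers of peaks. It stayed between 0.332 and 0.353 at Lef1. The depth of the merged libraries is unknown, so a missing peak does not show that a mark is absent.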
